A study of Mus musculus with 22 samples.

Results

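The 10 genes described here belong to the YAP-TEAD arm of the Hippo pathway and were followed across 22 bulk RNA-seq libraries of mouse tumour cells. They were the coactivators Yap1 and Wwtr1 (which encodes TAZ), the DNA-binding factors Tead1 and Tead4, the kinase gene Lats2, the angiomotin gene Amotl2, and the commonly used target genes Ctgf, Cyr61, Ankrd1 and Axl. They were taken by name from the deposited table, where all 10 were found among 49671 genes, and all 10 passed the filter on low values. The table writes 2 of them under the older symbols Ctgf and Cyr61, for the genes now named Ccn2 and Ccn1.

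The cells were primary lines from a tumour with the alleles p53fl/fl and Rosa26-YFP+/+ and the driver Lgr5CreER. Inducible Cre, made in Lgr5-expressing cells, removes p53 and switches on the YFP reporter. Every library shares this genotype, the controls included. Pitx1, Klf5, Nfatc1 or Creb3l1 had been targeted with CRISPR/Cas9 in 4 further lines, written here as the labels do (Pitx1KO, Klf5KO, Nfatc1KO, Creb3l1KO). Living single mCherry+ YFP+ cells were sorted by flow cytometry on EPCAM, an epithelial surface protein, into an EPCAM+ and an EPCAM- fraction at day 8 for all 5 lines, and into EPCAM+ only for the control line at day 0. Each of these 11 groups held 2 libraries, numbered 1 and 2. The labels name no treatment given at day 0, no age or number of animals, and nothing on separate cultures or clones behind the 2 libraries in each group. The p-values therefore measure the spread between these libraries, which may be technical.

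In the Hippo pathway, LATS kinases phosphorylate YAP and TAZ and keep them in the cytoplasm. Unphosphorylated YAP and TAZ enter the nucleus and bind TEAD proteins, which hold the DNA contact and recognise a short motif with the core GGAATG. Target genes include matricellular proteins, and also LATS2 and AMOTL2, which act back on YAP and TAZ as inhibitors. The pathway is regulated mainly through the proteins, by phosphorylation and location, which RNA levels do not report.

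RefSeq promoter windows (build GRCm38.p6, 250 bases before to 50 bases after a start site) were at hand for 7 of the 10 genes, Yap1, Wwtr1, Lats2, Amotl2, Cyr61, Ankrd1 and Axl, and not for Tead1, Tead4 and Ctgf. The motif GGAATG, searched on both strands, stood in at least 1 window of 7 of these 7 genes and in 8 of their 9 windows. Of all 32851 windows of 300 bases 14.7% held it, and of all 27025 genes 16.6%. The genes are long-known pathway members and targets, so the count describes them and was not tested. The 30 bases around each copy are shown, and what they have in common is the motif by which they were found. The motif is in capitals, and every copy is turned so that it reads GGAATG 5′ to 3′, which for Cyr61 and Amotl2 is the strand opposite to the gene.
Yap1: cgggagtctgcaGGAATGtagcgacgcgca
Wwtr1: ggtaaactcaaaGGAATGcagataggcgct
Lats2: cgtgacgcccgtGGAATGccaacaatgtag
Amotl2: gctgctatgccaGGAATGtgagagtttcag
Cyr61: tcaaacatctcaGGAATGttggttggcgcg
Ankrd1, upstream copy: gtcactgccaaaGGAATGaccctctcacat
Ankrd1, downstream copy: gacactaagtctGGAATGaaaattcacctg
Axl: ggaaattctacaGGAATGtttaccagaccc

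Positions are those of the first base on the strand of the gene, of GGAATG or, in Amotl2 and Cyr61, of its complement CATTCC. This base lay 141 bases before the start in Yap1 and 136 or 170 bases before the 2 annotated starts in Wwtr1. It lay 65 bases before the start in Amotl2, 103 in Cyr61 and 233 in Axl. In Lats2 it lay 4 bases after the start. Ankrd1 was the only 1 of the 7 with 2 copies, at 210 and 123 bases before the start, and 1.57% of all genes held at least 2. In addition, 3 whole windows are given on the strand of the gene, with the motif or its complement CATTCC in capitals. Wwtr1 is shown because it differed between the fractions, and Cyr61 and Ankrd1 because they varied most between libraries among the genes with a window. They lie at chr3:57575861-57576160 (minus strand), chr3:145649936-145650235 (minus strand) and chr19:36119795-36120094 (minus strand).
Wwtr1: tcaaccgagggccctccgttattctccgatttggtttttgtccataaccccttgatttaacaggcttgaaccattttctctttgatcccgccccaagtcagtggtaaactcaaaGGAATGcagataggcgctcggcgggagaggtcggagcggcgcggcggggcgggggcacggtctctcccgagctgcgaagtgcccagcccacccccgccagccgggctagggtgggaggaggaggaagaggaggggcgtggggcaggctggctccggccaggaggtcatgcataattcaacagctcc
Cyr61: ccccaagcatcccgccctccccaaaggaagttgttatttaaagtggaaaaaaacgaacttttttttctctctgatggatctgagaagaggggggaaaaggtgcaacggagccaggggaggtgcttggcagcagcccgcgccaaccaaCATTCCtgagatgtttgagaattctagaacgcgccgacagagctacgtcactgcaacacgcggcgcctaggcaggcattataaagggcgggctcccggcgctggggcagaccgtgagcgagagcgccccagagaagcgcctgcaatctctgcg
Ankrd1: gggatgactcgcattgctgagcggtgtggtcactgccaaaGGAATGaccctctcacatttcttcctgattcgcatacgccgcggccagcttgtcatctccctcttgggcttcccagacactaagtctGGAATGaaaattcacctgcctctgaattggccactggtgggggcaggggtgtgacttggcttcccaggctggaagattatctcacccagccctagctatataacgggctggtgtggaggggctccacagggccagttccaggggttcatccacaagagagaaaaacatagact

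The libraries held 6054930 to 9882696 reads in genes (median 7804837), read back from the deposited values, which the authors had scaled to a total of 20007331 to 20014236 units in each library. Epcam was 3702 to 7320 units in EPCAM+ and 90 to 735 in EPCAM- libraries. Pitx1 was 1205 to 1627 in Pitx1KO against 4358 to 6438 in control libraries at day 8, and Nfatc1 182 to 249 against 488 to 981. Klf5 was 1961 to 2247 in the libraries labelled Klf5KO against 1733 to 2941, so its RNA did not separate them from the controls. Creb3l1 was listed at 0 in both control EPCAM+ libraries and at 137 and 26 in the control EPCAM- libraries, against 6 and 0 in Creb3l1KO. Of the markers of other cell types, the 5 fibroblast genes summed to 90 to 771 units in EPCAM+ and 620 to 3828 in EPCAM- libraries, with Col1a1 at 67 to 3666 and Pdgfra at 19 to 398, while Lum stayed at 6 or less, Thy1 at 3 or less and Dcn at 8 or less outside the control libraries (61 and 35 in number 1). The immune list summed to 26 to 103, nearly all Cd68, with Ptprc at 9 or less, and the endothelial list to 65 to 431. The mesenchymal state genes Vim, Zeb1, Zeb2, Snai1 and Prrx1 summed to 5224 to 22765 in EPCAM+ and 38342 to 76547 in EPCAM- libraries. The part of these cell states in the differences below was not tested, and in bulk RNA fewer cells of a kind and less RNA per cell cannot be told apart.

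Per kilobase of exon the target genes Cyr61, Axl and Ctgf stood highest. The median over the 22 libraries was 3451 units per kilobase for Cyr61, 3127 for Axl and 2598 for Ctgf. Tead1 (604) and Wwtr1 (601) were near each other, followed by Ankrd1 (422), Amotl2 (384), Yap1 (307), Lats2 (268) and Tead4 (178). Wwtr1 thus stood above Yap1 and Tead1 above Tead4 on this scale. Between libraries Yap1 moved least, with its highest value 1.32 times its lowest. The same ratio was 1.69 for Lats2, 1.94 for Tead1, 2.14 for Axl, 2.70 for Wwtr1, 2.75 for Tead4, 4.17 for Amotl2, 4.25 for Cyr61, 8.04 for Ctgf and 14.5 for Ankrd1.

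**Figure D1:**
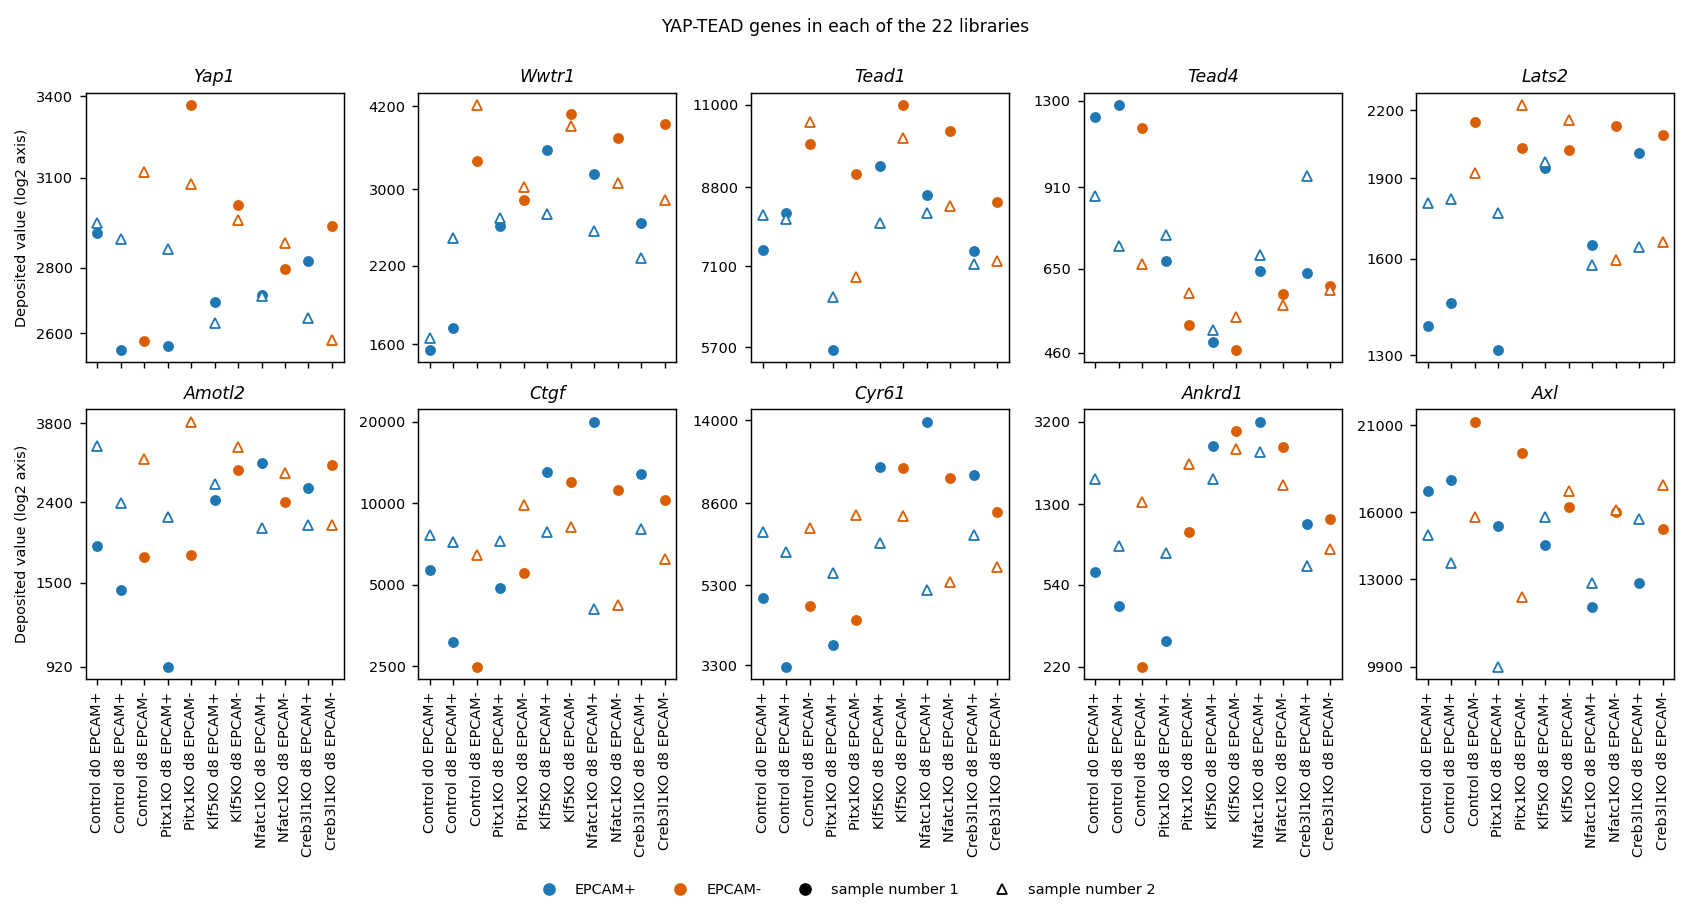
Deposited normalised value of each of the 10 genes (vertical, log2 axis with its own range for each gene) in the 22 libraries, by line, day and fraction (horizontal), with circles for sample number 1 and triangles for number 2. Yap1 spans 2551 to 3366 units over all libraries, while Ankrd1 spans 220 to 3200.

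EPCAM- cells were compared with EPCAM+ cells of the same line at day 8, to see how the pathway's RNAs differ between the epithelial and the EPCAM-negative state. Of the 10 genes, Wwtr1 and Tead1 rose and none fell when the 20 libraries were treated as independent, against 6.22% of the 19569 genes tested. Libraries of the 2 fractions with the same line and number deviated together, so each pair was also compared within its line and number. In that paired fit Wwtr1, Tead1, Lats2, Amotl2 and Axl rose, Tead4 fell, and Yap1, Ctgf, Cyr61 and Ankrd1 did not pass, a count of 6 of 10 against 22.7% of all genes. The 5 rises passed in each of 10 further fits that left out 1 pair, and the fall of Tead4 in 5 of them.

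Wwtr1 encodes TAZ and lies at chr3:57455649-57575910 (GRCm38, minus strand, ENSMUSG00000027803). It was 1710 to 3512 units in the 10 EPCAM+ libraries of day 8 (median 2601) and 2870 to 4219 in the 10 EPCAM- libraries (median 3524.5). The ranges overlap, but Wwtr1 was higher in EPCAM- in 10 of 10 pairs. The mean was 3497 ± 516 against 2627 ± 485 (SD, n = 10 each), a 1.33-fold rise and a log2 difference of 0.42 (SE 0.09, adjusted p 0.00923, and 1.18e-06 in the paired fit). The rise was 0.43 on the log2 scale in number 1 and 0.42 in number 2. In control cells alone Wwtr1 was 1710 and 2466 in EPCAM+ against 3357 and 4219 in EPCAM-, without overlap and 1.81-fold higher by the means. There its log2 difference of 0.87 (SE 0.20) had an adjusted p of 0.0739 with 0.644% of all genes called by limma. It was the 1 member with an unadjusted p under 0.05 there, and voom called 0 members. It passed with the sample number as a block (0.0316, 1.14% of all genes) and in the paired fit (1.94e-05, 7.01%). Without control EPCAM+ replicate 2, the higher of the EPCAM+ libraries (2466), the log2 difference was 1.14. Of the 4 knockout lines, Creb3l1KO had the next largest difference, with 2620 and 2267 in EPCAM+ against 3900 and 2870 in EPCAM- (log2 0.46, paired adjusted p 0.0201, 3.19% of all genes called). The smallest was in Pitx1KO, with 2582 and 2670 against 2877 and 3027 (log2 0.17, not called).

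Yap1, the paralogous coactivator (chr9:7931999-8004596, minus strand, ENSMUSG00000053110), moved little. It was 2551 to 2894 units in EPCAM+ (median 2702.5) and 2577 to 3366 in EPCAM- libraries (median 2946). It was higher in EPCAM- in 9 of 10 pairs, by a log2 difference of 0.11 (SE 0.06, adjusted p 0.354, paired 0.0973), so the difference did not pass. It passed when the Pitx1KO pair of number 2 was left out (0.0488). An antisense transcript, Gm20416, overlaps 116 exonic bases of Yap1 and held 274 to 472 units, and whether the counting used strand is not given in the sources used here.

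The TEAD genes went in opposite directions. Tead1 (chr7:112679318-112906807, plus strand, ENSMUSG00000055320) was 5658 to 9312 units in EPCAM+ (median 8030.5) and 6894 to 10989 in EPCAM- libraries (median 9499.5). It was higher in EPCAM- in 10 of 10 pairs, with a log2 difference of 0.25 (SE 0.07, adjusted p 0.044, paired 0.00144). The unpaired call was lost without any 1 of 15 of the 20 libraries (adjusted p up to 0.108). The smallest differences were in Creb3l1KO, with 7148 against 7211 in number 2, and the largest in Pitx1KO number 1, with 5658 against 9116. Tead4 (chr6:128224288-128300823, minus strand, ENSMUSG00000030353) was 481 to 1277 in EPCAM+ (median 679) and 465 to 1160 in EPCAM- libraries (median 587). It was lower in EPCAM- in 9 of 10 pairs, by -0.21 on the log2 scale (SE 0.13, adjusted p 0.387, paired 0.0233). With a pair left out, the paired adjusted p of Tead4 rose to as much as 0.11. The other 2 TEAD genes, named here after their values were seen, fell on both sides as well. Tead2 rose in the paired fit (log2 0.27, adjusted p 0.00152) and Tead3 fell in both fits (-0.31, 0.0202 unpaired). Whether the 4 differ from each other was not tested.

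Lats2 encodes a kinase that inactivates YAP and TAZ and is itself a target gene. It lies at chr14:57689662-57758388 (minus strand, ENSMUSG00000021959), with exons that overlap the gene Gm49361 on the same strand. Lats2 was 1315 to 2007 units in EPCAM+ (median 1706) and 1595 to 2224 in EPCAM- libraries (median 2058). It was higher in EPCAM- in 10 of 10 pairs, with a log2 difference of 0.22 (SE 0.09, adjusted p 0.166, paired 0.00628). The differences were 0.33 in number 1 and 0.12 in number 2.

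Amotl2 encodes an angiomotin that binds and retains YAP and is likewise a target (chr9:102716672-102733418, plus strand, ENSMUSG00000032531). It was 920 to 3006 units in EPCAM+ (median 2298.5) and 1742 to 3832 in EPCAM- libraries (median 2864), higher in 9 of 10 pairs. The exception was Nfatc1KO number 1, with 3006 in EPCAM+ and 2402 in EPCAM-. The log2 difference was 0.33 (SE 0.20, adjusted p 0.402, paired 0.00047). The angiomotin genes Amot and Amotl1 went the other way and fell in the paired fit (log2 -0.47 and -0.30, adjusted p 3.48e-05 and 7.9e-05). They were singled out after their values were seen.

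Axl, a receptor tyrosine kinase gene (chr7:25757273-25788705, minus strand, ENSMUSG00000002602), had the most even difference of the 10. It was 9900 to 17710 units in EPCAM+ (median 14064.5) and 12295 to 21227 in EPCAM- libraries (median 16208), higher in 10 of 10 pairs by 0.12 to 0.43 on the log2 scale. The mean log2 difference was 0.25 (SE 0.10, adjusted p 0.163, paired 3.95e-05).

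The matricellular genes Ctgf and Cyr61 and the nuclear protein gene Ankrd1, the most widely used readouts of YAP-TEAD activity, showed no common direction between the fractions. Ctgf (chr10:24595442-24598683, plus strand, ENSMUSG00000019997) was 3070 to 20013 units in EPCAM+ (median 7543) and 2488 to 11956 in EPCAM- libraries (median 7319.5), higher in EPCAM- in 4 of 10 pairs (log2 -0.14, SE 0.31, adjusted p 0.867, paired 0.16). Cyr61 (chr3:145646976-145649981, minus strand, ENSMUSG00000028195) was 3274 to 13905 (median 6620) and 4304 to 10594 (median 7698.5), higher in 6 of 10 pairs (0.06, SE 0.22, adjusted p 0.917, paired 0.444). Ankrd1 (chr19:36111961-36120099, minus strand, ENSMUSG00000024803) was 292 to 3200 (median 931) and 220 to 2884 (median 1465), higher in 7 of 10 pairs (0.30, SE 0.32, adjusted p 0.68, paired 0.209). Paired calls hung on single pairs here. Ankrd1 passed without the control pair of number 1 (1.58e-05), and Ctgf, as a fall, without the Nfatc1KO pair of number 2 (0.00196).

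**Figure D2:**
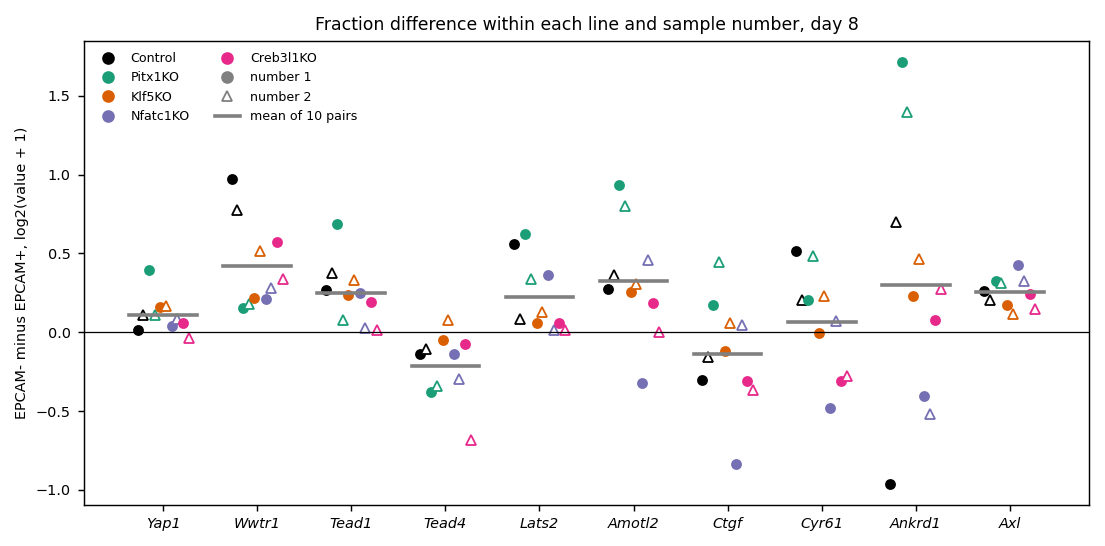
EPCAM- minus EPCAM+ difference in log2(value + 1) (vertical) for each gene (horizontal) in the 10 pairs of libraries that share a line (colour) and a sample number (circle 1, triangle 2), with the mean as a grey bar. All 10 points of Wwtr1, Tead1, Lats2 and Axl lie above 0, while those of Ankrd1 run from -0.96 to 1.72.

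Within single lines the paired fit called further members. In Pitx1KO 4 of 10 rose, against 4.79% of all genes. Ankrd1 went from 292 and 760 in EPCAM+ to 961 and 2006 in EPCAM- (log2 1.56, paired adjusted p 0.0477), and Amotl2 from 920 and 2204 to 1760 and 3832 (0.87, 0.000426). The 2 fractions do not overlap for Ankrd1 and overlap for Amotl2, while within each number the EPCAM- library was higher for both genes. Lats2 (log2 0.48, 0.0303) and Axl (0.32, 0.0324) were the other 2. In Nfatc1KO only Axl was called, from 11919 and 12863 to 16027 and 16140 (log2 0.38, 0.0102, 6.08% of all genes). In Klf5KO 0 of 10 were called by limma (2.19% of all genes), with 2 at an unadjusted p under 0.05. Without pairing limma and voom called 0 members in each knockout line, against 0.317% of all genes in Pitx1KO, 0.286% in Klf5KO, 0.429% in Nfatc1KO and 0.291% in Creb3l1KO by limma. The members with an unadjusted p under 0.05 were 3 in Pitx1KO, 1 in Creb3l1KO and 0 in the other 2. No line's fraction difference was shown to differ from that of the control line for any member. The 40 interaction terms had adjusted p-values of 0.108 or more in the paired fit, 9 of them with an unadjusted p under 0.05, and of 1 without pairing, 2 of them under 0.05 unadjusted. Wwtr1 was among the 9 in every knockout line (log2 -0.71 in Pitx1KO, -0.63 in Nfatc1KO, -0.51 in Klf5KO and -0.42 in Creb3l1KO). These terms share the control libraries. The rest of the 9 were Cyr61 in Nfatc1KO and Creb3l1KO, and Ctgf, Ankrd1 and Amotl2 in Pitx1KO. Both unpaired terms were those of Wwtr1, in Pitx1KO and Nfatc1KO. Of all genes the paired interaction called 0.0869% for Pitx1KO, 0.0153% for Klf5KO and 0% for Nfatc1KO and Creb3l1KO, and the unpaired one 0% for each.

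For Ctgf, Cyr61 and Ankrd1 the sample number made more difference than the fraction. In control cells of day 8 Ctgf was 3070 and 2488 units in number 1, EPCAM+ and EPCAM-, and 7190 and 6446 in number 2. In Nfatc1KO the order was turned, with 20013 and 11200 in number 1 against 4067 and 4199 in number 2. Both fractions of a line and number were thus high together or low together. Of the variation of log2 Ctgf over the 20 libraries of day 8, the number within a line held 60.8%, the line 33.2% and the fraction 0.87%. The shares for Cyr61 were 54.4%, 36.4% and 0.35%, and for Ankrd1 23.5%, 60.9% and 1.95%. Like Ctgf and Cyr61, Amotl2 (54.1%), Axl (51.7%) and Yap1 (32.7%) had their largest share in the number within a line, and Ankrd1 in the line. These are shares of the sum of squares and were not adjusted for degrees of freedom. The number within a line has the most of these and the fraction the fewest. For Yap1 and Axl the fraction held 26.9% and 26.1%. Wwtr1 was the member with the largest share for the fraction (44.6%, against 21.6% for the number and 16.3% for the line).

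**Figure D3:**
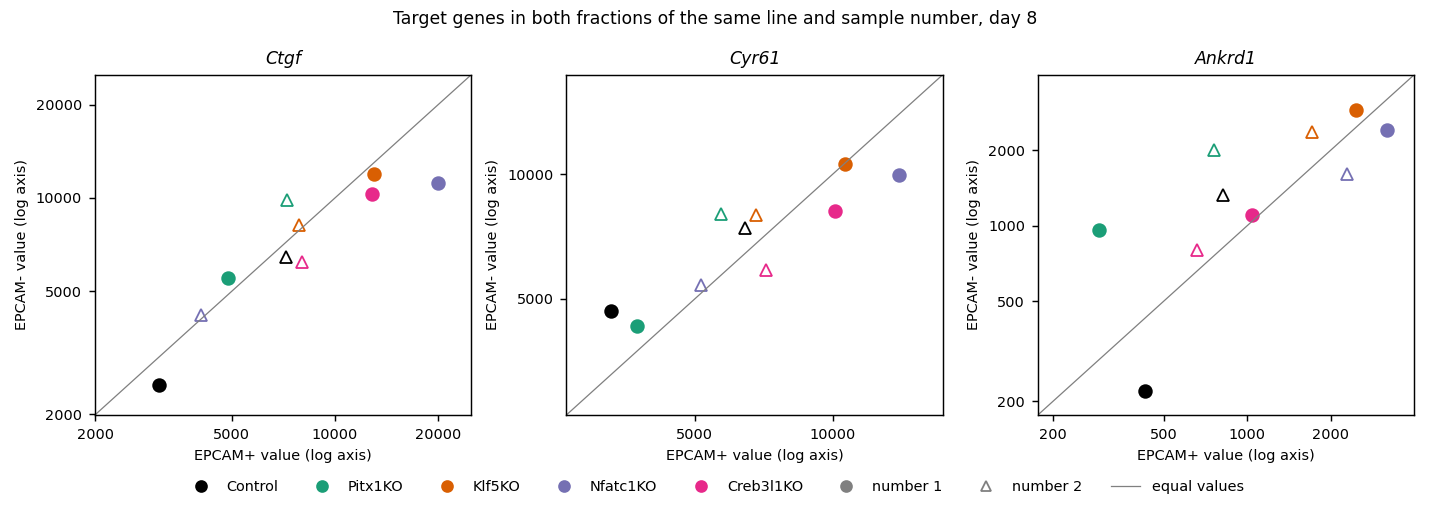
Value in the EPCAM- library (vertical, log axis) against the EPCAM+ library (horizontal, log axis) of the same line (colour) and sample number (circle 1, triangle 2) for Ctgf, Cyr61 and Ankrd1, with a line of equal values. The control circle is the lowest for Ctgf at 3070 and 2488, and the Nfatc1KO circle the farthest to the right at 20013 and 11200.

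EPCAM+ control cells of day 8 and day 0 were compared, with the fraction held the same. The day 8 cells were sorted apart from an EPCAM- fraction, a group that day 0 lacks, so time was not isolated. No member passed, nor did any of the 19569 genes (0% called by limma, 831 genes with an unadjusted p under 0.05, of which 0 were members, and 0 genes called by voom). Values overlapped or lay close, such as Yap1 at 2913 and 2945 on day 0 against 2551 and 2894 on day 8. Wwtr1 had 1564 and 1645 units on day 0 and 1710 and 2466 on day 8 (log2 0.36, SE 0.20, adjusted p 1). Control EPCAM- cells of day 8 were also set against the EPCAM+ cells of day 0, which changes time and fraction at once. Wwtr1 was the only member called, at 3357 and 4219 units against 1564 and 1645, a 2.36-fold rise (log2 1.23, SE 0.20, adjusted p 0.00355, 2.01% of all genes called). Without control EPCAM- replicate 2 it had a log2 difference of 1.07 and an adjusted p of 0.0577. Tead1 followed, with 9883 and 10490 against 7425 and 8153 (log2 0.39, adjusted p 0.25). Ctgf was 2488 and 6446 against 5651 and 7628 and was not called.

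Each knockout line was then compared with the control line at day 8, as the mean of both fractions, 4 libraries against 4. The 4 comparisons share the control libraries. No member was called in any of them, where 4.28% of all genes were called for Pitx1KO, 0.557% for Klf5KO, 0.046% for Nfatc1KO and 0.945% for Creb3l1KO. At an unadjusted p under 0.05 there were 2, 5, 2 and 2 of the 10 members, and voom called 0 in each. Of all 19569 genes tested, 2369 lay under that unadjusted threshold for Klf5KO, 2053 for Nfatc1KO and 2278 for Creb3l1KO. The 2 fractions of a number moved together, and with their mean as 1 value, 2 against 2, 0 members were called in each line too.

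Tead4 was lower than control in each line by the mean. In control libraries it was 1277, 1160, 715 and 663 units, and in the libraries labelled Klf5KO 481, 465, 505 and 534, below all 4 controls. The log2 difference was -0.88 (SE 0.20, adjusted p 0.0558), and it passed with the sample number as a block (0.0263, 1.62% of all genes called). The lowest control libraries were replicate 2 of EPCAM+ (715) and of EPCAM- (663), and without either of them the log2 difference was -1.09. With all libraries it was -1.36 in number 1 and -0.41 in number 2. In Pitx1KO Tead4 was 670, 516, 746 and 588 (log2 -0.55, adjusted p 0.142, and log2 -0.76 or -0.75 without those same control libraries). In Nfatc1KO it was 644, 586, 688 and 561 (-0.57, 0.35) and in Creb3l1KO 638, 606, 954 and 595 (-0.42, 0.432). Most of these means came from number 1, where the differences were -1.05, -0.99 and -0.97, against -0.06, -0.15 and 0.13 in number 2. Tead1 was 5658, 9116, 6535 and 6894 in Pitx1KO against 8201, 9883, 8072 and 10490 in control libraries (log2 -0.39, SE 0.11, adjusted p 0.0569). It passed with the block (0.0185, 8.77% of all genes called), and the difference was alike in both numbers (-0.33 and -0.46). Without the highest Pitx1KO library for Tead1, EPCAM- replicate 1 (9116), the log2 difference was -0.49.

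Of the target genes, Ctgf, Cyr61 and Ankrd1 were higher by the mean in several knockout lines, and mainly in number 1. Axl was lower by the mean in all 4, with log2 differences of -0.29 in Pitx1KO, -0.09 in Klf5KO, -0.26 in Nfatc1KO and -0.15 in Creb3l1KO (adjusted p 0.371 to 0.861). In the same order of lines they were -0.17, -0.34, -0.49 and -0.47 in number 1. In number 2 they were -0.41, 0.16, -0.03 and 0.17, so that only Pitx1KO was clearly lower in both numbers. Ankrd1 was 429, 220, 818 and 1330 in control libraries (both fractions of number 1, then of number 2). It was 2458, 2884, 1717 and 2366 in the libraries labelled Klf5KO, above every control library of day 8 (log2 2.03, SE 0.50, adjusted p 0.108). In Nfatc1KO it was 3200, 2415, 2290 and 1600, also above every control library of day 8 (2.02, SE 0.50, adjusted p 0.184). The control libraries of day 0, EPCAM+ only, held 617 and 1712 units of Ankrd1. Split by number, the Klf5KO difference was 3.11 in number 1 and 0.95 in number 2, and that of Nfatc1KO 3.17 and 0.88. For Pitx1KO it was 0.78 and 0.24, and for Creb3l1KO 1.80 and -0.52. In Pitx1KO EPCAM+ cells Ankrd1 was below control in both numbers, at 292 against 429 and 760 against 818. Without control EPCAM- replicate 2, the highest control library of day 8 for Ankrd1 (1330), its log2 differences in Klf5KO and Nfatc1KO were 2.68 and 2.67. For Ctgf the log2 differences were 0.61 in Pitx1KO, 1.20 in Klf5KO, 0.86 in Nfatc1KO and 1.05 in Creb3l1KO (adjusted p 0.344 to 0.599). In number 1 they were 0.91, 2.17, 2.44 and 2.05, and in number 2 0.31, 0.24, -0.72 and 0.05. For Cyr61, in the same order of lines, they were 0.03, 1.44, 1.59 and 1.22 in number 1, and -0.03, 0.09, -0.39 and -0.09 in number 2. In number 2 the 8 differences of these 2 genes thus lay between -0.72 and 0.31.

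**Figure D4:**
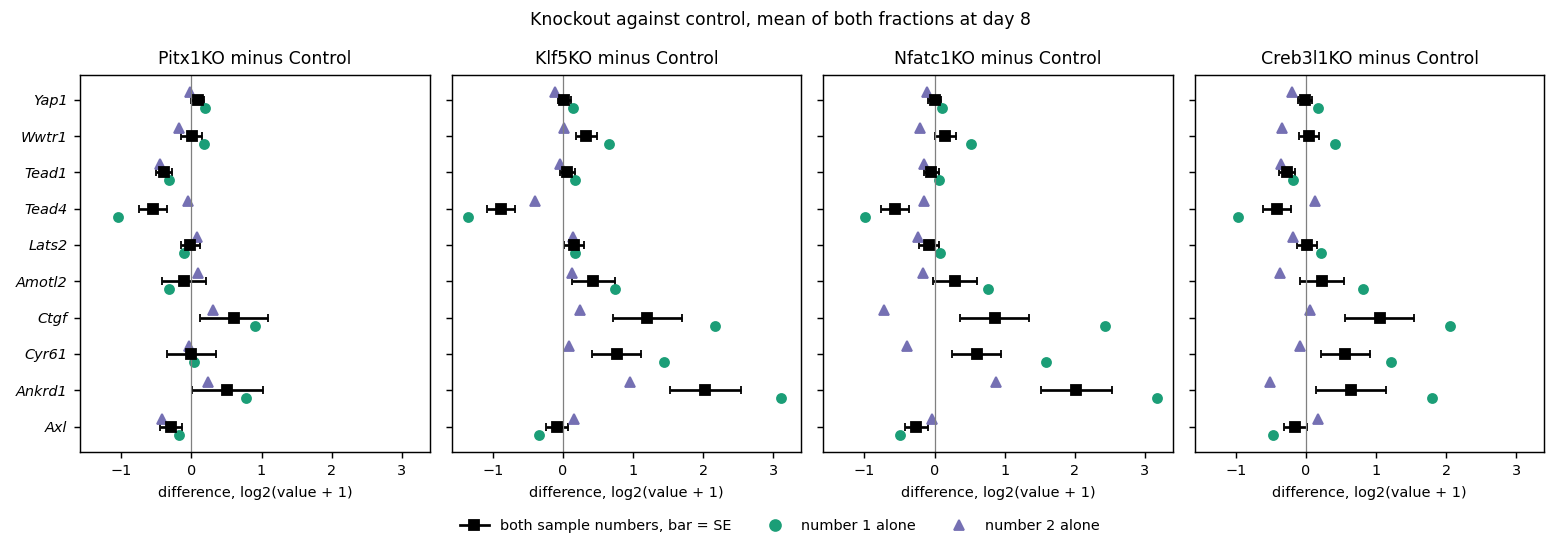
Knockout minus control difference in log2(value + 1) (horizontal) for the 10 genes (vertical) in 4 panels, 1 for each knockout line, as the mean of both fractions with its standard error (square) and for each sample number alone (circle 1, triangle 2). For Ctgf the circles of Klf5KO, Nfatc1KO and Creb3l1KO lie at 2.17, 2.44 and 2.05, and the triangles between -0.72 and 0.24.

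Beside the members, 4 lists of 57 pathway genes were read, all 57 in the table and 52 tested. They hold the members too, and they were drawn up with earlier results of these data known. Between the fractions 1 of 16 kinase and adaptor genes fell and 0 rose, with a median log2 difference of 0.03 against 0.06 over all genes tested, of which 6.22% were called, so that the count was near the share of all genes. The fall was that of Wwc1, which encodes the upstream scaffold KIBRA. Wwc1 was 2697 to 3862 units in EPCAM+ (median 3145.5) and 1731 to 2672 in EPCAM- libraries (median 2100), without overlap (log2 -0.62, SE 0.07, adjusted p 1.16e-05). It fell in control cells alone (-0.69, 0.0426) and against day 0 (-0.96, 0.00184). In the paired fit Lats2, Frmd6 (log2 0.23) and Rassf1 (0.20) rose and Wwc1 fell, 4 of 16 beside 22.7% of all genes. The kinase genes Stk3, Stk4 and Lats1 were not called in either fit.

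Of 12 tested coactivators, DNA-binding partners and antagonists 2 rose and 1 fell, with a median of 0.17, beside 6.22% of all genes called, and in the paired fit 7 rose and 4 fell, beside 22.7%. The 2 rises were the members Wwtr1 and Tead1. Tead3, the third to pass, was 489 to 725 in EPCAM+ (median 569.5) and 378 to 520 in EPCAM- libraries (median 461). Paired rises beside the members were those of Vgll3 (log2 0.56), Tead2, Vgll4 (0.17) and Ptpn14 (0.16). Vestigial-like proteins such as Vgll4 bind TEAD in place of YAP. Vgll1 and Vgll2 were listed at 0 in every library.

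Of 7 tested membrane inputs 1 rose and 2 fell, with a median of -0.03, beside 6.22% of all genes called. Crb3, an apical polarity gene, was 60 to 185 units in EPCAM+ (median 73.5) and 0 to 8 in EPCAM- libraries (median 4), where 8 units are 3 reads. Its adjusted p was 1.71e-07. Llgl2, a basolateral polarity gene, fell 2.08-fold by the means, with a median of 692.5 in EPCAM+ and 307 in EPCAM- (log2 -1.11, SE 0.23, adjusted p 0.00787). Fat4, an atypical cadherin, rose from 3 to 17 units (median 9.5) to 30 to 124 (median 56), with a log2 difference of 2.61 (SE 0.32, adjusted p 5.11e-05) that the pseudocount lowers. These 3 genes differ with the epithelial markers, and their part in the members' differences was not tested.

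Of 20 tested target genes 3 rose and 1 fell, with a median of 0.12, beside 6.22% of all genes called, and in the paired fit 8 rose and 3 fell, beside 22.7%. The rises were those of Crim1, a transmembrane protein gene, from a median of 891 to 2155.5 units (log2 1.21, SE 0.21, adjusted p 0.00173), of Foxf2, a forkhead factor gene, from 127 to 312.5 (1.21, 0.00961), and of Rbms3 at low levels, from 3 to 13.5 (2.04, 0.00771). Igfbp3, an IGF-binding protein gene, fell from 737.5 to 414.5 (-0.85, 0.0403). Against day 0 F3, the tissue factor gene, fell from 326 and 580 to 75 and 143 (log2 -2.06, adjusted p 0.0192), and no target rose. In Pitx1KO 1 target rose and 2 fell against control, where 4.28% of all genes were called. Rbms3 was 18, 86, 31 and 110 against 0, 6, 3 and 14 (adjusted p 0.00783), and the phosphatase gene Ptpn14 was 2124, 2676, 2171 and 2208 against 3435, 4548, 3084 and 3747 (log2 -0.68, adjusted p 0.0134). Asap1 was the other fall (-0.44, 0.0447). In the other 3 knockout comparisons limma called 0 genes of the 4 lists, with 7, 2 and 4 of the 20 targets at an unadjusted p under 0.05 in Klf5KO, Nfatc1KO and Creb3l1KO. Of all 19569 genes tested, 2369, 2053 and 2278 lay under that threshold in these lines. Fjx1 (at most 17 units), Ccdc80 (8) and Dchs1 (3) did not pass the filter.

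**Figure D5:**
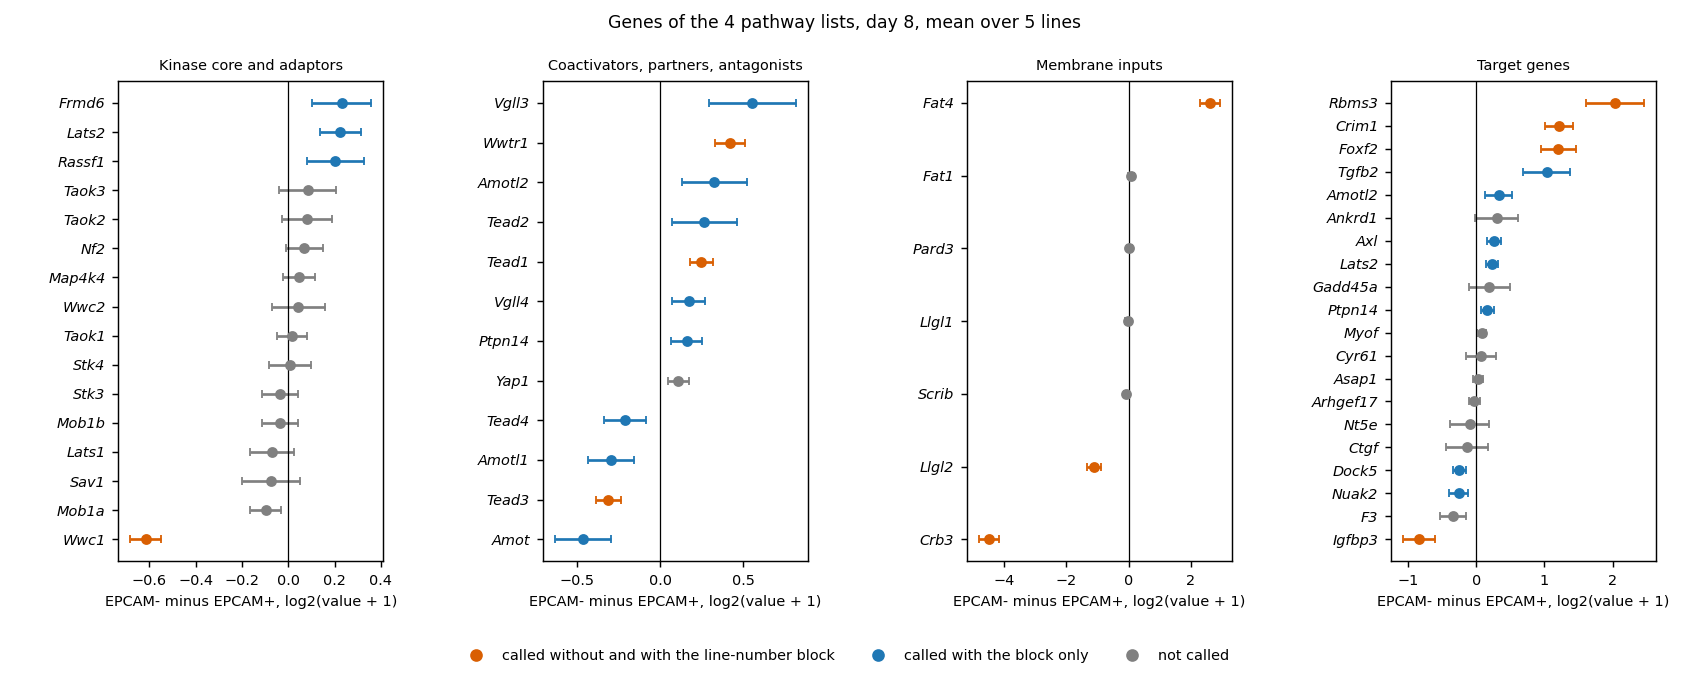
EPCAM- minus EPCAM+ difference in log2(value + 1) over 5 lines (horizontal, own range in each panel) for the 52 tested genes of the 4 lists, with the standard error of the unpaired fit. Orange genes passed with and without pairing, blue genes only with pairing and grey genes in neither, and Crb3 lies lowest at -4.48.

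The genes most like each member across the 22 libraries were found by Pearson's r of log2(value + 1) among 12578 other genes with a mean of at least 50. The libraries share lines and fractions, so r is a description. For Ctgf the closest was Gm15270 (r = 0.991), an antisense transcript that overlaps 665 exonic bases of Ctgf and held 1138 to 8098 units. If the counting did not use strand, reads of the 2 cannot be told apart, and the overlap was not resolved. Next came Litaf (0.908) and Ramp1 (0.906). Cyr61 was nearest to Plekhm3 (0.914), 2010300F17Rik (0.903) and Pdlim7 (0.898), and Ankrd1 to Fam132b (0.887), Slc25a25 (0.885) and Stk4 (0.876). For Wwtr1 these were Sec24d (0.943), Glg1 (0.908) and Hivep2 (0.907), for Tead1 Mapkbp1 (0.897), Agpat4 (0.853) and Zfp106 (0.847), and for Tead4 the keratin gene Krt6a (0.885), Zmiz2 (0.869) and Lmo7 (0.868). Krt6a held 0 to 1415 units with a median of 9, so its r rests in part on values near the floor. Amotl2 was nearest to Abl1 (0.898), Ppm1f (0.856) and Dlg4 (0.852), Axl to Mthfd1l (0.841), Mpc1 (0.836) and 4930506C21Rik (0.808), and Lats2 to Soga1 (0.806), Rcn1 (0.805) and Dennd5a (0.792). Yap1 had the lowest values, with Pam16 (0.769), its own antisense transcript Gm20416 (0.724) and Slc25a20 (0.698).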

How the data were processed

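The deposited values were read as a normalised score per gene, whole numbers that the authors scaled to 20007331 to 20014236 units a library. Per the submitters' processing notes FastQC, Trimmomatic, STAR, Picard and HTSeq were used with GRCm38/mm10, and versions are not given in the sources used here. In each library 99.7 to 99.9% of values were whole multiples of a step of 2.02 to 3.30 units, rounded up, taken as 1 read. Genes at 10 units or more in at least 2 libraries were tested (19569 genes) on log2(value + 1) with limma 3.58.1 in R 4.3.3, 1 mean per group over all 22 libraries (11 residual degrees of freedom), with trended robust variances, with Benjamini-Hochberg adjustment over every gene tested. A gene was called at an adjusted p under 0.05. The SE is that of this fit.

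The labels give the sample number under a tag named batch and say no more of it. Differences between numbers 1 and 2 correlated across 12307 genes at 0.57 to 0.78 between the fractions of each of the 5 lines, and over 0.1 in 44 of 55 pairs of groups. The paired fit therefore held line and number as a block (20 libraries, 5 residual degrees of freedom). Both fits were tested on simulated data, for the fraction comparison over 5 lines only. For the unpaired fit the simulated pairs did not deviate together. Positions came from GENCODE M21, which held 99.5% of the identifiers, and exon lengths and overlaps too.

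The members and lists were chosen with earlier results of these data known. Named genes were the members, every list gene called in a main comparison (at most 6 a list, by size), label checks, and 3 genes nearest each member. Others were named after their values were seen, and Asap1, past that limit, is one. A planned search of protein sequences was not run, and 1 item of the shared genotype is not reported here. Alternatives were scaling, filters, pseudocount, voom (limma's fit for counts, on the recovered reads), blocks and left-out libraries.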

Additional observations from a re-analysis of the deposited data

How the results depend on the processing

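Between the fractions over 5 lines the count of called members was 2, and 1 (Wwtr1) with median-ratio scaling, with no filter and with only the compared groups fitted. Replicate block within each line gave 6, and 5 to 7 when 1 of the 10 pairs was also left out. Leaving out single libraries gave 1 to 2. Wwtr1 passed in all 20 of these fits and Tead1 in 5, those without Pitx1KO EPCAM+ replicate 2, Pitx1KO EPCAM- replicate 2, Klf5KO EPCAM+ replicate 1, Nfatc1KO EPCAM- replicate 2 and Creb3l1KO EPCAM- replicate 2. In the other 15 its adjusted p was at most 0.108, at log2 differences of 0.21 or more. In control cells the count was 0, and 1 with the replicate block, 1 when paired within each line (1 to 2 with a pair left out, the second gene being Tead1, Cyr61 or Ankrd1; without a control pair the remaining one is assumed to vary like the other lines), and 0 to 1 with a library left out (Wwtr1 without control EPCAM+ replicate 2, adjusted p 0.026). Against day 0 it was 1, and 0 to 1 with a library left out. For Pitx1KO it was 0, and 1 (Tead1) with the replicate block and with the stricter filter. With a library left out it was 0 to 1, being Tead4 without control EPCAM+ replicate 2 (0.0448) or control EPCAM- replicate 2 (0.0494), and Tead1 without Pitx1KO EPCAM- replicate 1 (0.0311). For the libraries labelled Klf5KO it was 0, and 1 (Tead4) with the block. With a library left out it was 0 to 2, with Tead4 without control EPCAM+ replicate 2 (0.0137) or EPCAM- replicate 2 (0.0137), and Ankrd1 without the latter. For Nfatc1KO it was 0, and 0 to 1 with a library left out. Creb3l1KO and day 8 against day 0 EPCAM+ stayed at 0 in every fit run. Taking the mean of both fractions per number as 1 value, chosen after seeing the data, called 0 members in each knockout line, with 2 values against 2. Of the 80 member differences in the 8 comparisons, 34 changed sign in at least 1 fit, and none of these was called in the unblocked fit of all libraries. With a pair left out of the paired fit, Ankrd1 and Cyr61 in control cells and Ctgf over 5 lines were called among them. The causes were not tested. In the knockout comparisons, each call with a library left out came without a library that lay near the values of the other line. Leaving such a library out widens the difference. Ankrd1 rested on 77 reads in its lowest library.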
